A study of Bos taurus with 6 samples.

Results

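The genes described here encode 3 secreted peptides and the proteins that receive them: neuromedin B (NMB) with the receptors NMBR and GRPR, parathyroid hormone-like hormone (PTHLH, also called PTHrP) with its receptor PTH1R, and adrenomedullin (ADM) with the receptor CALCRL and the partner proteins RAMP1 and RAMP2. They were taken as every row of the deposited table whose gene symbol is one of these 9 names. Each name had 1 transcript cluster, a set of probes that reads one gene, so the members are 9 of 24415 clusters, and the provision that the brightest cluster of a gene leads decided nothing. The 9 genes were chosen by name when the changes between PD98059 and DMSO in these same arrays were already known, so their values are a description, and no p-value was adjusted over the list alone.

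Primary granulosa cells, the cells that line the ovarian follicle and make estradiol, came from small and medium bovine follicles and had been frozen before culture. Culture lasted 4 days in alpha-MEM without serum, and FSH, IGF-1 and androstenedione were given to every culture of both groups. On day 2, the 3 cultures of one group received 50 μM PD98059, which inhibits MEK and so the phosphorylation of ERK1/2, for 2 h, and the 3 cultures of the other received the vehicle DMSO. The medium was then replaced, to 70% by the sample labels and by fresh inhibitor-free medium by the methods, so whether some inhibitor remained is not settled. Breed, age and donor of the cells are not given in the sources used here, nor whether the 6 cultures came from one pool of cells, so a p-value here sets a difference only against the scatter among these 6 dishes. Their total RNA was read on Bovine Gene 1.0 ST arrays of Affymetrix, one for each culture.

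Neuromedin B belongs to the bombesin-like peptides, short amidated peptides of brain and gut that act through receptors coupled to Gq and phospholipase C. NMBR prefers neuromedin B, and GRPR prefers the related gastrin-releasing peptide. PTHLH is a locally acting relative of parathyroid hormone, known from cartilage, mammary gland and tumours, and PTH1R answers both hormones through Gs and Gq. Adrenomedullin is a vasodilator peptide known from the vessel wall and from cells short of oxygen. Its receptor CALCRL needs a RAMP at the cell surface, and in mammals RAMP2 makes it a receptor for adrenomedullin and RAMP1 one for calcitonin gene-related peptide (CGRP).

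Of the 3 ligands, NMB and PTHLH were higher in the PD98059-treated cells and ADM was higher in each treated culture by an amount inside the fold limit, whereas none of the 6 receptor and RAMP transcripts passed the threshold. Of those 6, NMBR, GRPR and CALCRL had means under an approximate background level, where a change may not have been detectable. All values are the authors' log2 values after Robust Multichip Average (RMA) processing, and all changes are PD98059 minus DMSO. The threshold was that of the study, a fold above 1.4 (0.49 on the log2 scale) together with an FDR under 0.05, here after Benjamini-Hochberg adjustment of limma, a moderated linear model, over all 24415 clusters. Of the 9 members, 2 passed, both of them higher, and none was lower. Of all clusters, 2.69% passed in either direction, 0.909% on the higher and 1.78% on the lower side. The same 2 members passed the FDR limit without the fold limit, as did 4.55% of all clusters, and they are 2 of the 6 members above background, where 4.05% of all clusters passed. Nothing is read from these shares, because the members were picked with the results known. The median change was 0.01 over the members and 0.01 over all clusters. The 3 treated and 3 control values did not overlap in 3 members, NMB, PTHLH and ADM, against 25.5% of all clusters (12.6% with the treated cultures higher).

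The 6 arrays had like distributions, with medians of log2 4.68 to 4.74, and arrays of one treatment correlated across clusters with r of 0.9938 to 0.9950, those of different treatments with 0.9912 to 0.9921. A level of log2 3.71, the 95th percentile of 363 olfactory receptor clusters, was taken as an approximate background, and 62.9% of all clusters lay above it. Of the members, 6 lay above it and 3 did not. Levels of different genes are not ranked against each other here, because probes differ in how brightly they bind.

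**Figure D1:**
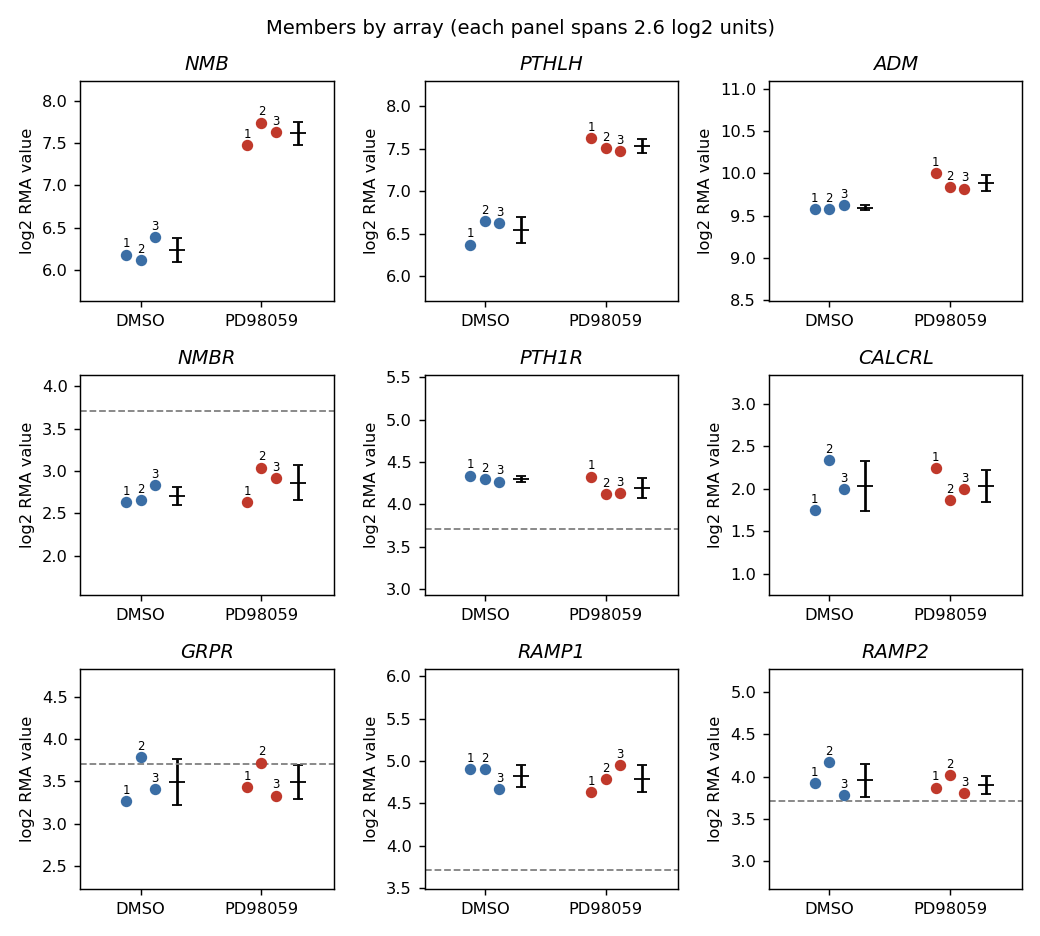
Log2 RMA value (vertical axis) of each member in the 3 DMSO-treated (blue) and 3 PD98059-treated cultures (red), numbered by replicate, with the mean and SD of each group beside the points and the approximate background level of log2 3.71 as a dashed line where it falls within the panel. NMB, PTHLH and ADM show no overlap between the groups, and the 6 receptor and RAMP genes do.

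NMB (cluster 12791964) read 6.18, 6.12 and 6.39 on the log2 scale in the DMSO-treated cultures and 7.47, 7.74 and 7.63 in the PD98059-treated ones. The groups lay far apart, and the lowest treated culture stood above the highest control. The means were 6.23 ± 0.14 and 7.61 ± 0.14 (SD, n = 3 each), a log2 fold change of 1.38 (standard error 0.11, limma adjusted p = 0.00269). On the linear scale NMB was 2.61-fold higher, with a 95% confidence interval of 2.19 to 3.1. This change was the 6th largest rise of all clusters. Leaving out single arrays gave changes of 1.32 to 1.46.

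The receptors for this peptide had means under the background level. NMBR (cluster 12901156) had log2 values of 2.63, 2.66 and 2.83 in the controls and 2.63, 3.04 and 2.92 with PD98059, a difference of 0.16 (95% interval −0.13 to 0.44, adjusted p = 0.534). GRPR (cluster 12909190) had 3.27, 3.79 and 3.41 in the controls and 3.43, 3.72 and 3.33 with PD98059, a difference of 0.00 (−0.38 to 0.38, adjusted p = 0.993). For both genes the groups overlapped, and replicate 2 of either treatment gave the highest GRPR value. At such levels the probes do not tell whether the transcript was present, and a change in it may not have been detectable.

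PTHLH (cluster 12857319) read 6.37, 6.65 and 6.62 on the log2 scale in the DMSO-treated cultures and 7.63, 7.51 and 7.47 in the PD98059-treated ones. Again every treated culture stood above every control, and the lowest value was that of DMSO replicate 1. The means were 6.55 ± 0.15 and 7.54 ± 0.08 (SD, n = 3 each), a log2 fold change of 0.99 (standard error 0.10, limma adjusted p = 0.00477), or 1.99-fold with a 95% interval of 1.69 to 2.33. It was the 28th largest rise of all clusters. Leaving out single arrays gave changes of 0.90, without DMSO replicate 1, to 1.04.

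PTH1R (cluster 12798651), the receptor for PTHLH, had log2 values of 4.34, 4.30 and 4.27 in the controls and 4.33, 4.12 and 4.13 with PD98059. PD98059 replicate 1 lay among the controls and replicates 2 and 3 lay below them, so the groups overlapped. The difference was −0.11 (95% interval −0.30 to 0.08, adjusted p = 0.512). The level was above background, and the interval leaves out a rise or a fall as large as the fold limit.

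ADM (cluster 12730711) read 9.58, 9.58 and 9.63 on the log2 scale in the DMSO-treated cultures and 10.00, 9.84 and 9.82 in the PD98059-treated ones. The controls lay close together and below all treated cultures, of which replicate 1 was the highest. The means were 9.60 ± 0.03 and 9.89 ± 0.10 (SD, n = 3 each), a log2 fold change of 0.29 (standard error 0.07), or 1.22-fold with a 95% interval of 1.08 to 1.38. With limma's adjusted p = 0.0873 (unadjusted 0.00631) ADM did not pass, and its interval lay wholly under the fold limit. Its adjusted p ranged from 0.00497 to 0.225 over the alternatives, and it was under 0.05 with the filter at the background level (0.0337), the filter at the median level (0.0188) and a variance trend (0.00497). Without PD98059 replicate 1 the change was 0.23. In size, the change of ADM in the reported fit ranked 1826th among the rises of all clusters.

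The parts of the adrenomedullin receptor did not pass either. CALCRL (cluster 12777248) had log2 values of 1.75, 2.34 and 2.00 in the controls and 2.24, 1.87 and 2.00 with PD98059, well under the background level, and a difference of 0.01 (95% interval −0.39 to 0.40, adjusted p = 0.988). RAMP2 (cluster 12761434), just above background, had 3.92, 4.17 and 3.78 in the controls and 3.87, 4.02 and 3.81 with PD98059, a difference of −0.06 (−0.33 to 0.22, adjusted p = 0.839). RAMP1 (cluster 12841380) had 4.90, 4.90 and 4.67 in the controls and 4.63, 4.79 and 4.95 with PD98059, a difference of −0.03 (−0.29 to 0.23, adjusted p = 0.907). The groups overlapped in all 3 genes. ADM itself was thus read well above background and the receptor CALCRL was not.

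**Figure D2:**
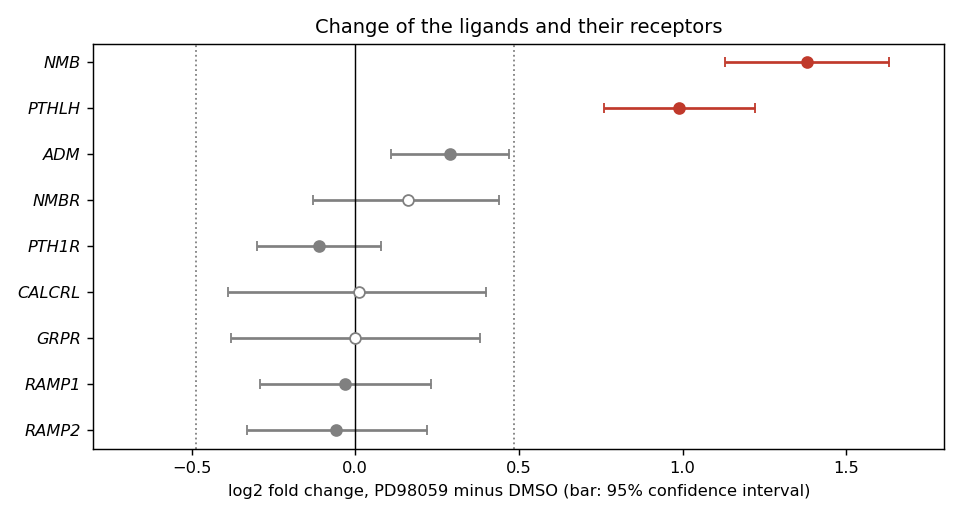
Log2 fold change (PD98059 minus DMSO) of each member with its 95% confidence interval from limma (6 arrays), red for those past the threshold, open for those with a mean not above the background level, and dotted lines at the fold limit of 1.4. The intervals of NMB (1.13 to 1.63) and PTHLH (0.76 to 1.22) lie beyond the limit, that of ADM (0.11 to 0.47) lies between 0 and the limit, and those of the 6 receptor and RAMP genes span 0.

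Over the 6 receptor and RAMP genes the changes ran from −0.11 to 0.16 on the log2 scale, and their intervals together from −0.39 to 0.44. None passed with limma, none with a group comparison without moderation of the variances, and 0 of 6 had an unadjusted p under 0.05. A fold as large as 1.36 upward or 1.31 downward was thus within the interval of at least one of them. Only PTH1R, RAMP1 and RAMP2 were read above background. How many of all clusters had an unadjusted p under 0.05 was not counted, so nothing is read from the 0 of 6.

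The rises of NMB and PTHLH did not depend on the way of fitting, over the 15 alternatives run. NMB had log2 fold changes of 1.32 to 1.46 and adjusted p-values of 1.5e-05 to 0.0302. PTHLH had 0.88 to 1.04 and adjusted p-values of 5.68e-05 to 0.0473. ADM stayed between 0.23 and 0.32, under the fold limit in all of them. With Tukey biweight group means, which give outlying arrays less weight, only the change was recomputed, and the adjusted p was that of the reported fit.

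**Figure D3:**
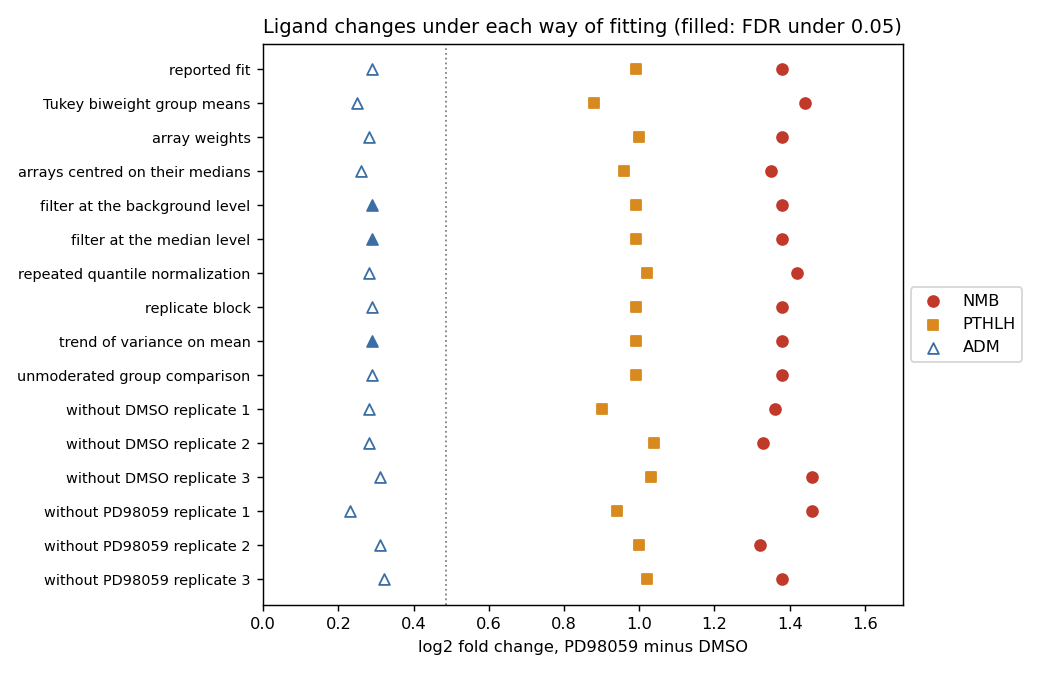
Log2 fold change (PD98059 minus DMSO) of NMB (circles), PTHLH (squares) and ADM (triangles) in the reported fit and under each of 15 alternatives, filled where the adjusted p was under 0.05, with the fold limit of 1.4 as a dotted line. NMB (1.32 to 1.46) and PTHLH (0.88 to 1.04) stay right of the line and filled, and ADM (0.23 to 0.32) stays left of it and is filled in 3 alternatives. For Tukey biweight group means the filling repeats that of the reported fit.

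No other gene of the bombesin or parathyroid hormone families passed. Of 8 measured genes of the bombesin, neuromedin U and neurotensin peptides and receptors, none passed in either direction with limma or with the unmoderated comparison, 2 had an unadjusted p under 0.05, and the median change was −0.02. GRP, which encodes gastrin-releasing peptide, had log2 values of 4.42, 4.80 and 4.89 in the controls and 4.43, 4.74 and 4.85 with PD98059, a change of −0.03. Neurotensin, NTS, stood at −0.25 (adjusted p = 0.17) and its receptor NTSR1 at −0.24 (adjusted p = 0.163), both without overlap between the groups. PTH, PTH2 and the receptor PTH2R, the 3 other measured genes of the parathyroid hormone family, lay at or under background, with changes of 0.05, 0.17 and 0.23, and none passed with either test or had an unadjusted p under 0.05. Nothing is read from these counts of unadjusted p, because the share over all clusters was not counted. Nor is anything read from the lack of calls, since 2.69% of all clusters passed in either direction.

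Among 8 measured genes listed with the calcitonin and CGRP family, 1 passed, on the lower side, as did 1.78% of all clusters. The median change over the list was 0.02. The gene that passed was ACKR3, an atypical receptor that takes up chemokines and also adrenomedullin. It read 4.72, 5.0 and 4.73 on the log2 scale in the controls and 3.91, 4.25 and 4.13 with PD98059, with no overlap. Its log2 fold change was −0.72 (standard error 0.12, limma adjusted p = 0.0238). It did not pass with the unmoderated comparison (adjusted p = 0.097), nor with any 1 of the 6 arrays left out, when the change was −0.63 to −0.80 and the adjusted p 0.0505 to 0.0764. ADM2, which encodes a second adrenomedullin, stood at −0.02, the CGRP receptor component CRCP at 0.10, and RAMP3, which also turns CALCRL into an adrenomedullin receptor, at −0.29 under background (adjusted p = 0.239).

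Of 15 measured enzymes and granule proteins that cut, amidate, carry or degrade secreted peptides, 14 did not pass and 1 was lower. Of all clusters, 1.78% passed on the lower side. The median change over the list was −0.07. PAM, which amidates the end of peptides such as neuromedin B and adrenomedullin, read 10.69 to 10.73 on the log2 scale in the controls and 10.69 to 10.75 with PD98059, a change of 0.01. CPE, carboxypeptidase E, which trims peptides in secretory granules, read 7.26, 7.23 and 7.28 in the controls and 6.51, 6.69 and 6.79 with PD98059, lower in each treated culture. Its change was −0.59 (standard error 0.09, limma adjusted p = 0.016). That call was lost with the unmoderated comparison (adjusted p = 0.0588) and without DMSO replicate 1, 2 or 3 or PD98059 replicate 2, with adjusted p-values up to 0.0721 and changes of −0.52 to −0.66. Carboxypeptidase D, CPD, stood at 0.32 in both of its clusters (adjusted p = 0.0448 in the brighter one), inside the fold limit, and the endothelin-converting enzyme ECE1 at 0.16.

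NMBR, GRPR and in part PTH1R signal through the Gq and phospholipase C arm. Of its 17 measured genes, 2 were higher and the other 15 did not pass, with a median change of 0.05. Of all clusters, 0.909% passed on the higher side. An unadjusted p under 0.05 was found in 7 of the 17, and 8 had no overlap between the groups, against 25.5% of all clusters. Nothing is read from these counts, because the list was chosen with earlier results of these data known. PRKD1, a kinase activated by diacylglycerol and protein kinase C, read 6.86, 7.00 and 7.05 on the log2 scale in the controls and 7.81, 7.77 and 7.74 with PD98059. Its change was 0.80 (standard error 0.07, limma adjusted p = 0.00443). The phospholipase PLCB4 read 10.22, 10.18 and 10.22 in the controls and 10.77, 10.83 and 10.81 with PD98059, a change of 0.60 (standard error 0.06, limma adjusted p = 0.00527). In both genes the cultures of each treatment lay close together and the groups far apart, and neither call was lost with the unmoderated comparison or with any 1 array left out. The G proteins GNAQ at −0.11 and GNA11 at 0.05 and the phospholipase PLCB1 at −0.13 did not pass.

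The Gs arm and the proteins that switch receptors off gave no call: of 19 measured genes, none passed with limma or the unmoderated comparison, 3 had an unadjusted p under 0.05, and the median change was −0.06. GNAS, which encodes the α subunit of Gs, stood at −0.06, and the adenylyl cyclases ADCY3 at −0.13 and ADCY6 at 0.17. Nor did any of 27 genes of other vasoactive and neuropeptide signals pass, with 6 at an unadjusted p under 0.05, none passing with the unmoderated comparison, and a median change of 0.04. ADCYAP1, which encodes the peptide PACAP, stood at 0.33 (adjusted p = 0.0938), TAC3, the precursor of neurokinin B, at −0.40 (adjusted p = 0.108), and VIPR2, a receptor for VIP and PACAP, at −0.24 (adjusted p = 0.212). Here too the counts of unadjusted p have no share over all clusters beside them, and nothing is read from them. Of all clusters, 2.69% passed in either direction, so the lack of calls among 19 and 27 genes is not read as a result either.

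**Figure D4:**
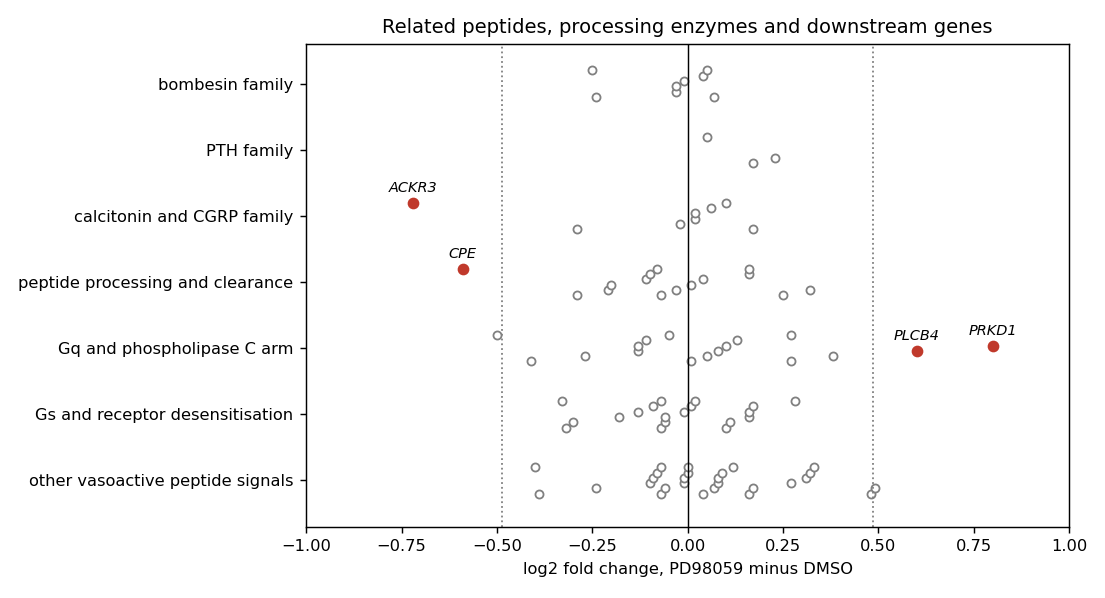
Log2 fold change (PD98059 minus DMSO, horizontal axis) of every measured gene of 7 related lists (rows), red and named where it passed the threshold, with dotted lines at the fold limit of 1.4. Of the genes shown, PRKD1 (0.80) and PLCB4 (0.60) were higher and ACKR3 (−0.72) and CPE (−0.59) lower.

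The patterns most like those of NMB and PTHLH over the 6 arrays were sought among 9271 named clusters with a spread of at least the median, as a description in which all points share the treatment. Closest to NMB were EGFR, the receptor for epidermal growth factor (Pearson's r = 0.999, log2 fold change 0.67), the glucose transporter SLC2A3 (r = 0.998, 1.02) and the stress granule protein G3BP1 (r = 0.998, 0.31, inside the fold limit). EGFR read 7.75, 7.71 and 7.88 on the log2 scale in the controls and 8.39, 8.49 and 8.48 with PD98059. As for NMB, DMSO replicate 3 was the highest control, but EGFR was picked for its likeness to NMB over these same arrays. Closest to PTHLH were PLEKHA2 (r = 0.997, log2 fold change 0.50), PRKD1 (r = 0.997, 0.80) and the mitochondrial electron carrier FDX1 (r = 0.996, 0.41, inside the fold limit). An r of at least 0.99 was shared by 46 clusters with NMB and by 19 with PTHLH. With array medians set equal PLEKHA2 no longer passed, nor did it with 4 of the 6 single arrays left out (0.46 to 0.53, adjusted p up to 0.0667), namely DMSO replicates 1 and 3 and PD98059 replicates 1 and 2.

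Markers of the granulosa cell and of other cells a follicle aspirate can hold were read beside these results, and in bulk RNA fewer cells of a type and less RNA per cell cannot be told apart. All 11 measured granulosa markers were above background, FSHR, FOXL2 and INHA among them, and 7 were higher with PD98059, of which FOXL2 did not pass with 3 and HSD17B1 with 4 of the 6 arrays left out singly (0.58 to 0.69 and 0.99 to 1.32), nor either of them with the unmoderated comparison (adjusted p = 0.0575 and 0.0817), which called 5 of the list. Of all clusters, 0.909% passed on the higher side. The summed level of that granulosa list (log2 of the summed linear values) was 12.80 to 12.87 in the controls and 13.54 to 13.57 in the treated cultures. The brightest gene, INHBA, weighs most in that sum, with means of 11.66 and 12.24, and it was among the 7. The other 4, AMH, AMHR2, NR5A2 and GATA4, did not pass. Of 11 endothelial markers, 3 were above background, with a summed level of 7.28 to 7.36 in the controls and 7.18 to 7.29 with PD98059. Those 3 were CLDN5, VWF and ESAM, with means over the 6 arrays of 5.44, 5.11 and 3.98, and the others, PECAM1, TEK, TIE1, KDR and EMCN among them, lay under background. CLDN5 stood at −0.05 and ESAM at 0.16. VWF was lower at −0.57 (limma adjusted p = 0.0284, not past the threshold with 5 of the 6 arrays left out singly, where it was −0.50 to −0.65). Of 6 theca markers, 5 were above background and INSL3, the brightest, was higher (0.61), while CYP17A1 lay under background. PTCH1 stood at 0.39, inside the fold limit, and NR2F2 at −0.02. The summed level was 9.05 to 9.11 in the controls and 9.48 to 9.52 with PD98059, and in such a sum the brightest gene, here INSL3, weighs most. Smooth muscle and pericyte markers summed to 7.92 to 8.14 and 8.10 to 8.22, with 7 of 8 above background, MCAM higher (0.68) and CNN1 lower (−0.66), of which MCAM did not pass with 5 (0.57 to 0.80) and CNN1 with 6 of the 6 single arrays left out (−0.53 to −0.77). Leukocyte markers summed to 7.90 to 7.99 and 7.91 to 8.26, with 4 of 8 above background, and none past the threshold with either test. The brightest were CD68, CD14 and CSF1R, above background with means over the 6 arrays of 6.66, 6.07 and 4.94 and changes of −0.03, 0.19 and 0.01. PTPRC, the pan-leukocyte surface marker, lay under background at 3.05 ± 0.06 in the controls and 3.55 ± 0.37 with PD98059 (SD, n = 3 each), and was the 1 leukocyte marker of 8 with an unadjusted p under 0.05. The part of these cells in the levels of NMB, PTHLH and ADM was not tested.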

How the data were processed

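Background reduction, normalization and the summary of probes to clusters were done by the authors in Expression Console with RMA, and the log2 values were deposited with 2 decimals. All 146490 of them equal the deposited log2 values of the series' own value table. No source used here names the genome build of the clusters, so no coordinates are printed. Columns were matched to samples by name, with 0 left unmatched. Clusters outside the 9 members were named through RefSeq accessions of the ARS-UCD2.0 annotation or by a single symbol (19687 of 24415), and a gene with several clusters is led by the brightest. The members, gene lists and tests were chosen with earlier results of these data known.

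Groups were compared with limma 3.58.1 (lmFit, eBayes) in R 4.3.3, treatment as the only factor, two-sided, without a filter. The prior had 2.8 degrees of freedom beside 4 residual ones, and the median SD within groups was 0.12. The methods name an ANOVA with an FDR correction and do not say whether variances were moderated, and a fit without moderation was one of the alternatives. On simulated data of 24415 clusters, where 50 had each fold, the fit called 29 at 1.5-fold, 46 at 2-fold, 50 at 3-fold and 49 at 4-fold, and of 189 clusters called 15 were unchanged ones. The noise was normal and independent, with each cluster's moderated SD, so recovery on the real arrays may differ. Fewer clusters were changed than the 656 called on the real arrays. The Benjamini-Hochberg adjustment depends on that number, so recovery may differ for this reason too. Only clusters above background were changed, so the simulation does not cover genes read as NMBR, GRPR and CALCRL were. Arrays give no counts, so their number limits the precision. Labelling was stated to start from the 3′ end, so how evenly each cluster's probes were reached is not settled.

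Named genes are all members, up to 4 called members of each list by size and 3 others by level, the 3 most alike clusters of each called member, and from each marker list the 3 brightest and those past the threshold, of which the text names some, with further markers under background named for their level. Counts and lists used pandas 2.3.3 with numpy 2.4.6.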

Additional observations from a re-analysis of the deposited data

How the results depend on the processing

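NMB and PTHLH passed the threshold in all 15 alternatives run for each, and ADM and the receptor and RAMP genes passed in none. The alternative with Tukey biweight group means varied only the fold, since its adjusted p was carried over from the reported fit. At a fold above 2, NMB passed and PTHLH did not, which leaves 1 of the 9 members. Over all clusters, 656 passed, 87 at a fold above 2, 1110 at the FDR limit alone, 350 with the unmoderated comparison, and 271 to 491 without 1 array. The arrays whose omission took this count down most were DMSO replicates 1 (271), 3 (364) and 2 (419), and PD98059 replicates 2 (388) and 3 (406). With the replicate number as a block it was 237, and NMB (adjusted p = 0.0302) and PTHLH (0.0473) still passed. Of the other genes printed as past the threshold, the block ended the calls of PLCB4 (0.0502), CPE (0.0667), PLEKHA2 (0.0752), INHBA (0.0505), FOXL2 (0.0801), HSD17B1 (0.0646), INSL3 (0.0516), VWF (0.0505), MCAM (0.121) and CNN1 (0.124). The unmoderated comparison also ended those of VWF (0.0946), MCAM (0.127) and CNN1 (0.136), beside the genes for which this is given above. The reported fit does not take the numbers to pair the cultures, and the labels do not say that they do. Same-numbered arrays deviated together with r of 0.07, 0.03 and 0.05, each above the different-numbered pairs, at −0.07 to 0.02. With 3 arrays in each group these values do not settle whether the cultures were paired.

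Changes near 0 turned sign. CALCRL went to −0.03 with centring on array medians and −0.01 with repeated quantile normalization, and ran from −0.13 to 0.16 without 1 array. GRPR went to −0.03 and −0.06, and ran from −0.11 to 0.15. RAMP1 ran from −0.11 to 0.05 and RAMP2 from −0.14 to 0.05 without 1 array. For each of these the adjusted p was 0.591 or more in every alternative. The filters left out NMBR, GRPR and CALCRL, and the filter at the median level also PTH1R and RAMP2. The mean over all clusters of a gene was not run, because each member has 1 cluster. That NMBR, GRPR and CALCRL had means under the background level limits what can be said of them, beside the number of arrays.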

Other observations

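The genes next to the 9 members in the RefSeq order of the ARS-UCD2.0 annotation, a set chosen after the members' values were seen, did not pass the threshold. Of 18 flanking protein-coding genes 17 had a cluster, and their log2 changes ran from −0.26 to 0.35. Of all clusters, 2.69% passed in either direction, so nothing is read from the lack of a call among 17. NMB lies between WDR73, which stood at −0.12, and SEC11A, a subunit of the signal peptidase that cuts the leader from secreted proteins. SEC11A was higher in each treated culture, at 0.35 (limma adjusted p = 0.0332), inside the fold limit. PTHLH lies between CCDC91 at 0.00 and KLHL42 at 0.10, and ADM between AMPD3 at −0.26 (adjusted p = 0.253) and SBF2 at 0.01.

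Some genes of the Gq list outside the named ones lay near the limits. GNA14, a G protein of the Gq class, stood at −0.41 (adjusted p = 0.0421), inside the fold limit, and PRKCA, protein kinase C alpha, at −0.50 (adjusted p = 0.103), lower in each treated culture. These genes were singled out after their values were seen.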
